A study of Homo sapiens with 24 samples.

Results

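The death receptor pathway was examined through 10 genes: FADD, the caspases CASP8 and CASP10, their inhibitor CFLAR, the receptors TNFRSF10A, TNFRSF10D, and TNFRSF1A, the adaptors TRADD and RIPK1, and the ligand TNFSF10. The members were chosen by name, as the rows of the deposited table whose Ensembl identifier belongs to these symbols, and all 10 were found among 43037 genes. CAGE-Seq, a method that captures and reads capped 5′ ends, had been applied to U87MG, T98G, U251MG, and DBTRG-05MG, which are established glioblastoma cell lines. In each line, “WWOX” cells carried a lentivirus in which a CMV promoter drives WWOX, with GFP and puromycin resistance on the same backbone, and “Vec” cells had received a blank virus with puromycin resistance. All cells had therefore been transduced and selected with puromycin, and the comparison within a line is of the WWOX virus against the blank virus. GFP is described for the WWOX virus only, so WWOX cannot be told apart from other differences between the viruses. Each of the 8 groups, formed by 4 lines and 2 variants, held 3 libraries, 24 in all. The methods call the 3 libraries of a group biological triplicates, without saying whether the transduction was repeated, so p values may measure only the spread between libraries of 1 selected population. The methods call the puromycin selection clonal, and the sources used here do not give how many clones a variant holds. Differences between variants therefore cannot be told apart from differences between clones. In bulk RNA, fewer expressing cells cannot be told apart from less RNA per cell.

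When a ligand of the TNF family binds a death receptor, the cytoplasmic death domain of the receptor gathers the adaptor FADD, and FADD in turn gathers procaspase-8 and procaspase-10, which cleave and activate each other. The inhibitor c-FLIP, encoded by CFLAR, takes a place in the same assembly and limits that activation. At the TNF receptor, TRADD and RIPK1 bind first and signal through NF-κB, and a later cytoplasmic complex with FADD and caspase-8 can kill the cell. Many glioma cells resist TRAIL, the product of TNFSF10, and the amounts of its receptors, caspase-8, and c-FLIP have long been studied for that reason.

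Levels are given as CPM, that is, tags of a gene per 1000000 tags on all genes of a library. The libraries held between 10756072 and 16953689 tags, with a median of 14584829. A count of 0 allows up to 3 tags, or 0.177 to 0.279 CPM depending on the library, which covers counting error only. WWOX, the gene carried by the virus, measured 33.9 to 40.1 CPM in the U87MG “Vec” libraries and 61.0 to 66.0 in “WWOX”. In DBTRG-05MG it measured 20.4 to 22.2 against 28 to 32. The variants did not overlap in either line, which held for 17.5% and 19.7% of all genes there. Neither difference passed the threshold (adjusted p = 0.136 and 0.77, limma). In T98G the ranges were 34.2 to 57.2 and 45.1 to 61.8, and in U251MG they were 31.4 to 36.8 and 17.4 to 56.7. Whether tags that begin in the virus were counted for WWOX is not given in the sources used here. The level of WWOX therefore does not check the labels in any line. By the methods, the transduction was checked by Western blot. Glial markers summed to between 825 and 5822.7 CPM over 8 genes, and 7 of them passed the filter. CD44, which many cell types express, made up most of that sum outside U251MG, with group means of 807 to 2879.9 CPM, while GFAP, S100B, OLIG2, SOX2, and NES averaged 6.12 CPM at most in any U87MG or T98G group. GFAP, the filament protein of astrocytes, averaged 2654.8 CPM in U251MG “Vec” but at most 6.12 CPM in any group of the other lines. In U251MG “WWOX”, replicate 1 stood apart in GFAP, with 114 CPM against 2506.3 and 3225.9 in replicates 2 and 3. Values without replicate 1 are given where a result rests on it. Replicate 2 held 17.4 CPM of WWOX, against 56.7 and 38.0 in replicates 1 and 3. The 3 leukocyte and microglial markers summed to 0.351 CPM at most, with PTPRC and AIF1 at 3 tags or fewer in every library. Markers of endothelium summed to 13.3 CPM at most, of epithelium to 30, of neurons to 32.5, and of fibroblasts and pericytes to 522. CDH5, the 1 endothelial marker tested, averaged 2.84 CPM in U251MG “Vec” and 8.26 in “WWOX”. It passed the threshold there (limma), and its part in the U251MG values was not tested. KRT8 made up most of the epithelial sum in DBTRG-05MG, at 23.7 CPM in “Vec” and 19.1 in “WWOX”. SNAP25 made up the neuronal sum, with RBFOX3 at 3 tags or fewer in every library.

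The 5′ ends of transcripts lie at promoters, and the windows around the annotated starts are shown for FADD, CASP8, RIPK1, and TNFSF10, whose levels differed between lines, and for PEA15, described further on. RefSeq windows (GRCh38.p14, 250 bases before to 50 after a start) were found for 6 of the 10 members. FADD, TNFRSF1A, and TNFSF10 had 1 window each, CASP8 and RIPK1 had 3, and CFLAR had 4. The deposited values hold 1 number per gene, so the starts of CASP8, RIPK1, and CFLAR cannot be told apart. Letters run 5′ to 3′ on the strand of the gene and end 30 bases after the start, and capitals mark matches to 7 short motifs on either strand.
FADD, chr11:70203046-70203325, plus strand: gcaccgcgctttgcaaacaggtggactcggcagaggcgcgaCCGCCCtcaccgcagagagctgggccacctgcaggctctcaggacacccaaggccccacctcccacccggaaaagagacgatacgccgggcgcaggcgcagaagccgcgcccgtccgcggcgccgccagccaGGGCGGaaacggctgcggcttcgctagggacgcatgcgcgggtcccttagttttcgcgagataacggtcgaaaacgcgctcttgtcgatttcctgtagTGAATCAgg
CASP8, first start, chr2:201233213-201233492, plus strand: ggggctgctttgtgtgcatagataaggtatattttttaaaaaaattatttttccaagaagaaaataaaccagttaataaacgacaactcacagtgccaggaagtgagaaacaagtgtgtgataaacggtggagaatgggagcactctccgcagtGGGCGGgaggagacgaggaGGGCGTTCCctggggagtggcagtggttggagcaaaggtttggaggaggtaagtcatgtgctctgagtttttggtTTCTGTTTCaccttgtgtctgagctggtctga
RIPK1, first start, chr6:3063717-3063996, plus strand: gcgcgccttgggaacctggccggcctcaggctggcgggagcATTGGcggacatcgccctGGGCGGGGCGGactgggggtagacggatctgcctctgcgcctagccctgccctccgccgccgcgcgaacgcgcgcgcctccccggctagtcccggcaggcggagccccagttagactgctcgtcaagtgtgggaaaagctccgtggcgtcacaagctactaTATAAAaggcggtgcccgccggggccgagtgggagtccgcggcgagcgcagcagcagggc
TNFSF10, chr3:172523401-172523680, minus strand: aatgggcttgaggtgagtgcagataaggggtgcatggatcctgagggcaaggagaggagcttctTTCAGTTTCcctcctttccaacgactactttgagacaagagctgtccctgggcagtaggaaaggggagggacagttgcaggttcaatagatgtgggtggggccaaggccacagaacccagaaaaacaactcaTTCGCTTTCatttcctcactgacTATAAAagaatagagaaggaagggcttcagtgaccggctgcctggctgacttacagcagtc
PEA15, chr1:160205134-160205413, plus strand: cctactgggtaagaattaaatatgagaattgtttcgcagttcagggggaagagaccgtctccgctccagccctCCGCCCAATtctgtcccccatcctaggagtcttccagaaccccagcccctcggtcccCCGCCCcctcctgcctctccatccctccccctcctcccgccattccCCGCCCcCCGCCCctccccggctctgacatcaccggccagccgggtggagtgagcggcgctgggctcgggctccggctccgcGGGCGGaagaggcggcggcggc

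The motifs were the GC box GGGCGG, found in 44.9% of 34796 distinct windows, TATAAA (11.6%), CCAAT (34.6%), the AP-1-like TGANTCA (7.73%), the interferon-response-like GAAANNGAA (8.11%), the κB-like GGGNNTTCC (6.55%), and the ETS-like CCGGAAG (10.2%). FADD had 2 GC boxes and 1 AP-1-like match 21 bases past its start. Its window was 66.7% G and C, above the median window of 58.7%, and held 36 CpG. The first CASP8 window was 46.3% G and C with 6 CpG, and held 1 GC box, 1 κB-like match, and 1 interferon-response-like match. TNFSF10 had a TATAAA starting 31 bases before its start and 2 interferon-response-like matches, in a window with 3 CpG. The first RIPK1 window had a TATAAA at −30, a CCAAT, and 2 GC boxes that share a base. PEA15 had 5 GC boxes, 1 of which runs into a CCAAT. A match describes letters and is not evidence that a factor binds.

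TNFRSF10A and TNFRSF10D were high in some lines and under 1 CPM in the others. TNFSF10 averaged higher in U251MG and DBTRG-05MG than in T98G and U87MG. The lines with the higher levels were the same in “Vec” and “WWOX”. TNFSF10, the ligand TRAIL (chromosome 3, 172505508 to 172523475, minus strand), measured 5.11, 10.0, and 3.82 CPM in U251MG “Vec” and 1.44, 5.22, and 8.45 in “WWOX”. In DBTRG-05MG it measured 6.81, 0.579, and 7.05 CPM in “Vec” and 2.18, 6.22, and 4.45 in “WWOX”. T98G held 1.55, 0.439, and 1.63 CPM in “Vec” and 0.186, 0.445, and 0.264 in “WWOX”. U251MG and DBTRG-05MG thus had the higher levels but a wide spread within groups, and in T98G only the lowest “Vec” library reached down to the “WWOX” libraries. All 6 U87MG libraries lay at or under 0.339 CPM, with 5 tags at most. Between the “Vec” libraries, U251MG exceeded T98G by 1.85 on the log2 scale (adjusted p = 0.021, limma) and did not differ detectably from DBTRG-05MG (0.74, 95% interval −0.53 to 2.01). No neighbours in the order U251MG, DBTRG-05MG, T98G, U87MG differed past the threshold. For “WWOX” against “Vec”, log2FC was −1.07 in T98G (standard error 0.599, adjusted p = 0.52) and −0.45 in U251MG (adjusted p = 0.85), neither past the threshold, and the U251MG value turned to 0.24 without “WWOX” replicate 1.

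TNFRSF10A encodes DR4, a TRAIL receptor with a full death domain (chromosome 8, 23190452 to 23225102, minus strand). It was found at 28.6, 22.7, and 24.6 CPM in DBTRG-05MG “Vec” and at 21.3, 21.8, and 20.4 CPM in “WWOX”. All 6 U251MG libraries and the 3 T98G “WWOX” libraries held no tag, the T98G “Vec” libraries held 0.281, 0.188, and 0 CPM, and the 6 U87MG libraries held between 0.0847 and 0.701 CPM. Only DBTRG-05MG reached 5 CPM, and it was at least 111-fold higher than U251MG in “Vec” and at least 102-fold higher in “WWOX”. Some U87MG libraries lay above the limit of 3 tags, the highest with 10 tags. The start of TNFRSF10A lies within TNFRSF10A-DT, a gene on the opposite strand, and use of strand in the counting is not given in the sources used here. In DBTRG-05MG the 3 “WWOX” libraries were below the 3 “Vec” libraries, with a log2FC of −0.31 (standard error 0.231, adjusted p = 0.894), within the error of the test.

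TNFRSF10D encodes DcR2, a TRAIL receptor with a truncated death domain that binds the ligand as a decoy (chromosome 8, 23135588 to 23164027, minus strand). U87MG “Vec” held 60.6, 61.8, and 78.2 CPM and “WWOX” 54.0, 42.1, and 50 CPM. DBTRG-05MG “Vec” held 59.8, 44.4, and 53.0 CPM and “WWOX” 47.5, 40.8, and 47.8 CPM. The 12 libraries of T98G and U251MG held 0.313 CPM at most, and the U251MG “WWOX” libraries held no tag, which places U87MG “WWOX” at least 234-fold and DBTRG-05MG “WWOX” at least 218-fold higher. In U87MG every “WWOX” library lay below every “Vec” library, a log2FC of −0.51 (95% interval −0.96 to −0.07, standard error 0.211, adjusted p = 0.291, limma). DBTRG-05MG gave −0.26 (adjusted p = 0.912) with overlap. The fitted mean of the 4 lines was −0.29, with an adjusted p of 0.179 and an exact two-sided permutation p of 0.00125 over 160000 arrangements of labels within lines. That mean includes T98G and U251MG, where the gene was at the limit and the fitted value depends on the pseudocount. The TRAIL receptor TNFRSF10B (DR5), of the wider list, was present in every line, at 105 ± 52.6 CPM (SD, n = 3) in U87MG “Vec” and 331 ± 56.8 in DBTRG-05MG “Vec”, with T98G “Vec” at 145 ± 40.0 and U251MG “Vec” at 114 ± 66.6. Its log2FC lay between 0.10 and 0.27 over the 4 lines, with overlapping libraries in each, and the U251MG value of 0.27 turned to −0.44 without “Vec” replicate 2 and to −0.09 without “WWOX” replicate 2.

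TNFRSF1A encodes TNFR1, the main receptor of TNF (chromosome 12, 6328757 to 6342114, minus strand), and was present in every library. The “Vec” mean was highest in DBTRG-05MG, at 247 ± 25.3 CPM (SD, n = 3), followed by T98G at 170 ± 7.63, U87MG at 156 ± 17.1, and U251MG at 137 ± 24.9. DBTRG-05MG exceeded U251MG by 0.81 on the log2 scale (adjusted p = 0.00446), while no neighbours in the order DBTRG-05MG, T98G, U87MG, U251MG differed past the threshold. The “WWOX” means were 156 ± 7.09, 184 ± 37.0, 155 ± 12.8, and 214 ± 30.9 CPM in U87MG, T98G, U251MG, and DBTRG-05MG, and log2FC lay between −0.27 and 0.17. The “Vec” and “WWOX” libraries overlapped in each line.

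**Figure D1:**
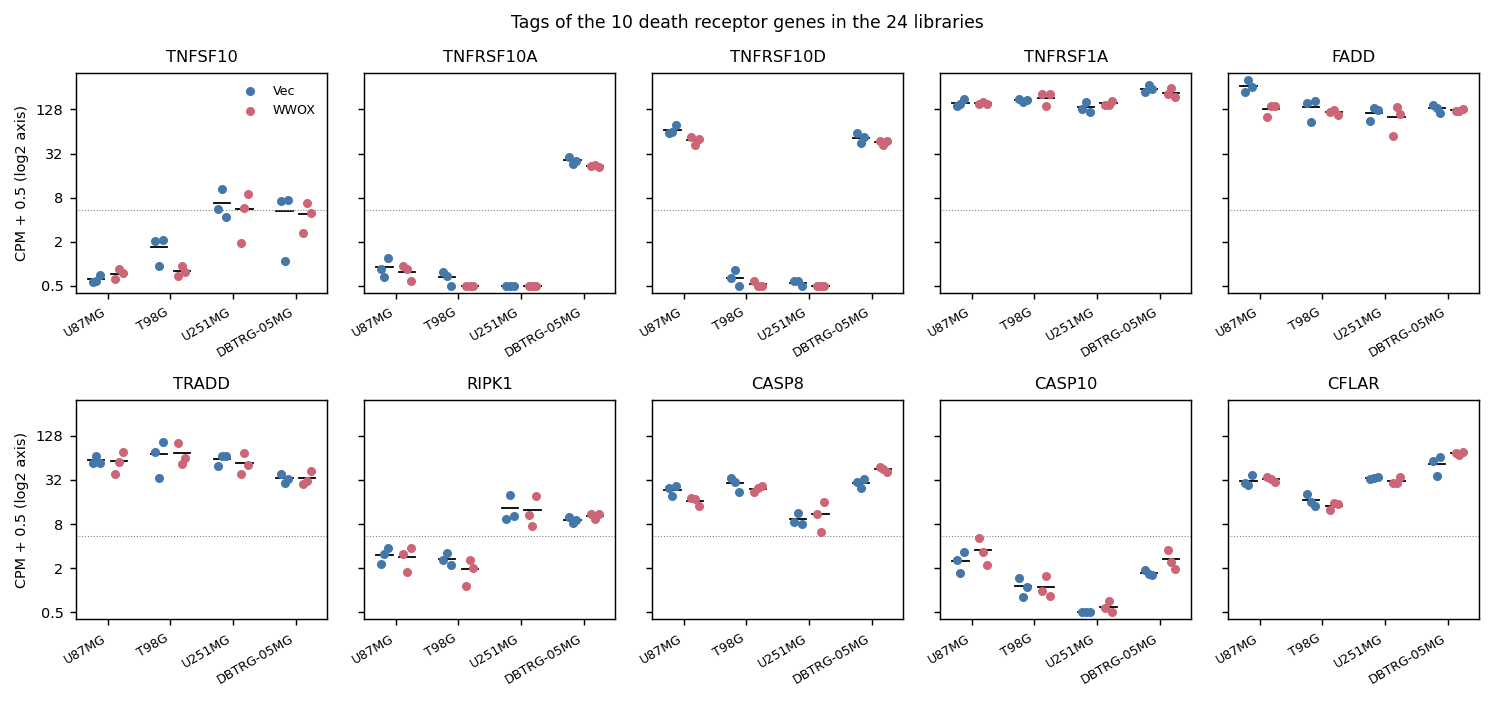
CPM + 0.5 on a log2 axis (vertical) of each of the 10 genes in the 3 “Vec” (blue) and 3 “WWOX” (red) libraries of each line, with the group mean as a black line and the filter of 5 CPM as a dotted line. TNFRSF10A is above the filter in DBTRG-05MG and in no other line, TNFRSF10D is above it in U87MG and DBTRG-05MG, and CASP10 is below it throughout; levels are to be read within a gene, not between genes.

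FADD itself (chromosome 11, 70203296 to 70207390, plus strand) joins death receptors to the caspases. A gene on the opposite strand is annotated over part of FADD but not over its start. U87MG “Vec” held 220, 319, and 261 CPM and U87MG “WWOX” held 101, 142, and 141 CPM. T98G measured 155, 87.1, and 167 CPM in “Vec” and 118, 124, and 108 in “WWOX”. U251MG measured 88.9, 133, and 124 CPM in “Vec” and 55.1, 138, and 109 in “WWOX”. The 3 U87MG “Vec” libraries were the highest of all 24, and U87MG was the only line whose variants did not overlap. DBTRG-05MG measured 147, 135, and 113 CPM in “Vec” and 122, 121, and 129 in “WWOX”, which overlap. Among “Vec” cells U87MG exceeded T98G by 1.01 on the log2 scale (adjusted p = 0.0272), DBTRG-05MG by 1.23 (adjusted p = 0.00738), and U251MG by 1.38 (adjusted p = 0.00353). The order of T98G, DBTRG-05MG, and U251MG could not be resolved, with intervals of −0.53 to 0.97 and −0.60 to 0.90 for the neighbouring pairs.

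In U87MG the log2FC of FADD was −1.12 (95% interval −1.87 to −0.37, standard error 0.355, n = 3 against 3), a level 2.17-fold lower in “WWOX”. The limma p was 0.00469 and, adjusted over 12327 genes, 0.105, so FADD did not pass the threshold of 0.05. An exact permutation test of 3 against 3 libraries gave 0.1, the smallest p it allows. T98G gave −0.17 (0.09 without “Vec” replicate 3), U251MG −0.29 (0.18 without “WWOX” replicate 1), and DBTRG-05MG −0.14, all within 1 standard error of 0. All 4 values were under 0, which 10.6% of the genes tested share, and their mean was −0.43 (standard error 0.178, adjusted p = 0.249, exact two-sided permutation p = 0.0411). Without U251MG “WWOX” replicate 2 the adjusted p of that mean was 0.0302 (limma). The difference of U87MG from the mean of the other lines was −0.92 (adjusted p = 0.417), so that a drop particular to U87MG is not shown by this test.

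The level of FADD went with properties of the libraries that were computed from the same expression values, and whether they are technical was not tested. After the mean of each line was removed, the log2 level of FADD over the 24 libraries had r = 0.74 with the slope of each library on the GC content of transcripts. With the scaling factor r was −0.69, but the level had been divided by that factor, which builds in part of a negative r. The points share lines and variants, and r is given as a description. In U87MG the slopes were 0.04, 0.12, and −0.05 in “Vec” and −0.26, 0.00, and 0.15 in “WWOX”, which overlap. Of the 24 libraries, U251MG “WWOX” replicate 2 had the highest slope (0.5) and the lowest scaling factor (0.797). The part of these properties in the FADD values beyond the correction below was not tested. A correction for GC content and transcript length, chosen after this was seen, gave −1.02 in U87MG (standard error 0.216, adjusted p = 0.00537). The other lines gave −0.01, −0.28, and −0.02. Under that correction FADD passed the threshold in U87MG, beside 4.67% of all genes, and against the mean of the other lines, beside 3.21%. Over the 13 settings other than leaving out a library, the adjusted p in U87MG ran from 0.00537 to 0.141 and was under 0.05 in 3. It was also under 0.05 with limma without U251MG “WWOX” replicate 1 (0.034) or 2 (0.0265), which held the lowest and the highest FADD of that group. These libraries of another line enter through the shared estimate of spread, the scaling, and the adjustment over all genes.

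**Figure D2:**
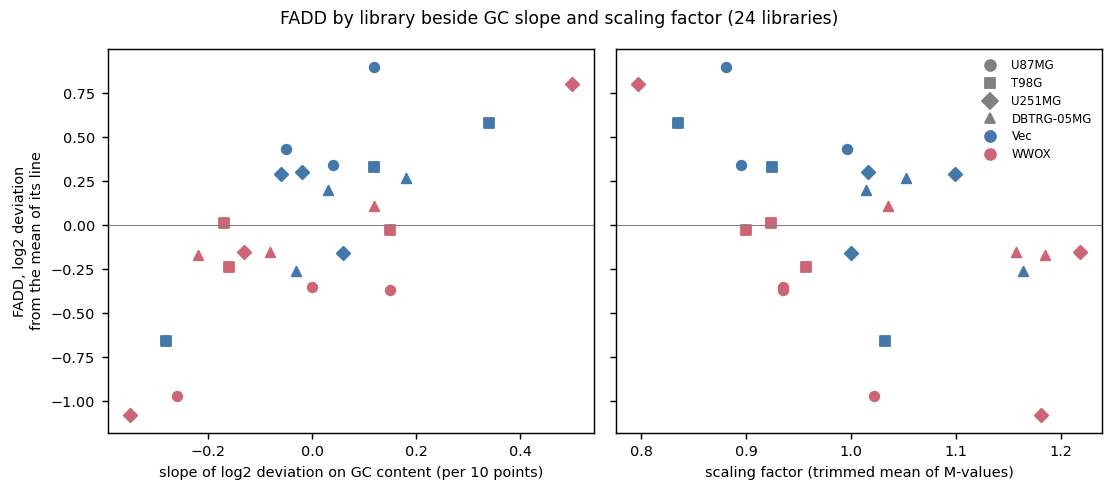
FADD in each of 24 libraries as the log2 deviation from the mean of its line (vertical), against the slope of the library's deviations on GC content in log2 per 10 percentage points (left) and its scaling factor (right, no unit); symbols are lines and colours variants. FADD is higher where the GC slope is higher (r = 0.74) and lower where the scaling factor is higher (r = −0.69), and the 3 U87MG “WWOX” libraries lie below the 3 U87MG “Vec” libraries. The FADD values had been divided by the scaling factor, which builds in part of the negative r.

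Genes whose libraries moved most like FADD were BID (r = 0.934 over 24 libraries, line means removed), SDHAF1 (0.931), DRAP1 (0.929), H4C16 (0.910), and TMEM9 (0.899). The most opposed were MARCHF6 (−0.913), RIMOC1 (−0.903), and SMAD2 (−0.899). Resemblance was broad, since 17.2% of genes had r above 0.5 to FADD, and after the correction for GC content and length r was 0.763 to 0.886 for the 5 most alike and −0.747 to −0.732 for the 3 most opposed. BID, which caspase-8 cleaves to bring in mitochondria, held 253, 407, and 286 CPM in U87MG “Vec” and 124, 158, and 217 in “WWOX”. Its libraries did not overlap in that line, with a log2FC of −0.99 (adjusted p = 0.134), and the corrected value was −0.96 (adjusted p = 0.064). Among the members, the 36 pairs had r between −0.31 and 0.73 with a median of 0.205, and the highest pair was FADD with TRADD.

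FADD lies in the 11q13 region beside CCND1, which tumours often amplify together. Of the 10 nearest tested protein-coding genes, 7 had a log2FC under 0 in U87MG (median −0.46), against 5 in DBTRG-05MG and 3 each in T98G and U251MG. Over all genes tested the share under 0 was 51.9% in U87MG, 49.0% in DBTRG-05MG, 54.1% in T98G, and 49.5% in U251MG. The T98G count includes ANO1, which averaged 0.0234 CPM in “Vec” of that line. MYEOV, which starts at −909.0 kb from FADD, fell in U87MG from 265, 219, and 409 CPM to 40.1, 45.3, and 49.6 CPM, a log2FC of −2.73 (adjusted p = 0.00578). CCND1, the G1 cyclin, gave 0.32 in the same line. The nearest gene before FADD, ANO1, had no tag in U87MG, and the nearest after it, PPFIA1, gave −0.52 (adjusted p = 0.525). Apart from MYEOV none of the 10 neighbours passed the threshold in U87MG.

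**Figure D3:**
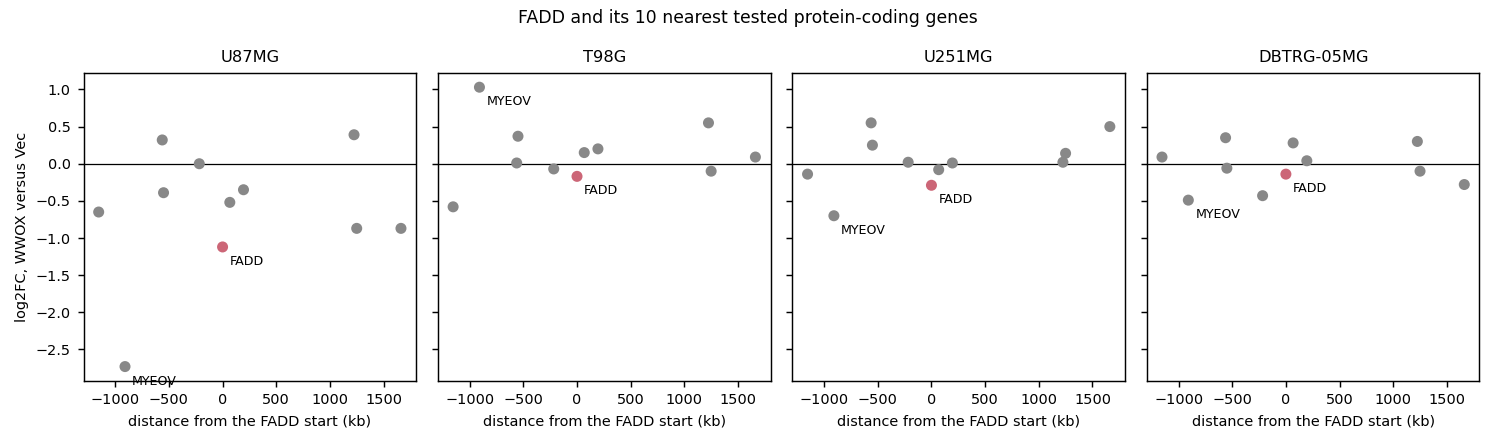
log2FC of “WWOX” versus “Vec” (vertical) in each line for FADD (red) and its 10 nearest tested protein-coding genes (grey), by distance of the annotated start from that of FADD in kb. In U87MG 7 of the 10 neighbours lie below 0, beside 51.9% of all genes, and MYEOV lies lowest at −2.73, whereas in T98G MYEOV is at 1.03. ANO1, with no tag in U87MG, is drawn at 0 there.

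TRADD, the adaptor that TNFR1 binds first (chromosome 16, 67154185 to 67159909, minus strand), held 28.9 to 37.6 CPM in DBTRG-05MG “Vec”, below the 53.9 to 68.2 of U87MG and the 49.3 to 68.1 of U251MG. T98G “Vec” spread from 33.7 to 105 CPM and overlapped all of these. DBTRG-05MG was lower than T98G by 1.18 (adjusted p = 0.0282) and U87MG by 1.04 (adjusted p = 0.0493) on the log2 scale, although the joint test of the 4 lines gave an adjusted p of 0.0607. Between variants log2FC lay from −0.24 to 0.11, and the lowest, in U251MG, turned to 0.08 without “WWOX” replicate 1. The spread within groups was wide, with a standard error of 0.419 and 95% intervals that reached from −1.12 to 1.0 over the lines.

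RIPK1, the kinase at the branch between NF-κB and cell death (chromosome 6, 3063824 to 3115187, plus strand), held 8.84, 19.5, and 9.91 CPM in U251MG “Vec” and 10.0, 6.94, and 18.7 in “WWOX”. DBTRG-05MG held 7.86 to 9.36 CPM in “Vec” and 8.81 to 10.5 in “WWOX”. U87MG and T98G held 0.651 to 3.23 CPM over their 12 libraries, all below the lowest library of the other lines. RIPK1 in U251MG “Vec” was 3.78-fold above U87MG (adjusted p = 6.3e-05) and 4.26-fold above T98G (adjusted p = 2.8e-05), and not resolved from DBTRG-05MG (log2 difference 0.51, interval −0.20 to 1.21). For “WWOX” against “Vec”, T98G had the largest value, −0.56 (standard error 0.331, adjusted p = 0.557), with overlapping libraries.

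CASP8, the initiator caspase that FADD recruits (chromosome 2, 201233443 to 201361836, plus strand), was lower in every U87MG “WWOX” library and higher in every DBTRG-05MG “WWOX” library than in “Vec” of the same line. In U87MG it held 24.3, 18.6, and 26 CPM in “Vec” and 17.9, 16.8, and 13.7 in “WWOX”. In DBTRG-05MG it held 29.1, 24.1, and 32.2 CPM in “Vec” and 48.0, 44.3, and 40.2 in “WWOX”. Neither pair of groups overlapped. T98G held 34.0, 29.8, and 21.3 CPM in “Vec” and 21.3, 24.0, and 26 in “WWOX”, and U251MG 7.95, 10.9, and 7.57 in “Vec” and 10.4, 5.65, and 15.6 in “WWOX”, both with overlap.

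The log2FC of CASP8 was −0.55 in U87MG (95% interval −1.0 to −0.10, standard error 0.214, adjusted p = 0.242) and 0.57 in DBTRG-05MG (0.11 to 1.02, adjusted p = 0.40), neither past the threshold. T98G gave −0.23 and U251MG 0.14. The difference of U87MG from DBTRG-05MG, a contrast chosen after the values had been seen, was −1.12 (95% interval −1.76 to −0.48, adjusted p = 0.0612 with limma). Over 12 other settings its adjusted p ran from 0.00809 (DESeq2 on the recovered tags) to 0.258 and was under 0.05 in 3. It was also under 0.05 without U251MG “WWOX” replicate 2 (0.0234) or 3 (0.0365). With the correction for GC content and length, CASP8 passed the threshold in U87MG (−0.62, adjusted p = 0.0442), in the joint test of differences (adjusted p = 0.0288, beside 6.15% of all genes), and in the difference from DBTRG-05MG (adjusted p = 0.0146, beside 2.71%). The annotation puts other genes over CASP8 on both strands, none of them over its outermost start, and overlap at its other starts was not examined. Among “Vec” cells CASP8 was lowest in U251MG, 3.45-fold under T98G (adjusted p = 6.2e-07), 3.02-fold under DBTRG-05MG (3.47e-06), and 2.83-fold under U87MG (5.2e-06), and the order of those 3 could not be resolved.

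CASP10, the second initiator caspase of the assembly (chromosome 2, 201182872 to 201229428, plus strand), did not reach 5 CPM and was not tested. It held 2.06, 1.24, and 2.81 CPM in U87MG “Vec” and 4.65, 2.78, and 1.69 in “WWOX”. DBTRG-05MG held 1.12 to 1.37 CPM in “Vec” and 1.44 to 3.07 in “WWOX”, and T98G 0.313 to 1.04 CPM over its 6 libraries. U251MG “Vec” held no tag in 3 libraries, so U87MG “Vec” was at least 8.93-fold higher, and U251MG “WWOX” held 3 tags at most. U251MG was thus the line with the lowest level of either initiator caspase.

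CFLAR, the inhibitor c-FLIP (chromosome 2, 201116154 to 201176687, plus strand), held 57.4, 35.5, and 65.4 CPM in DBTRG-05MG “Vec” and 73.6, 69.7, and 76.6 in “WWOX”. All 3 “WWOX” libraries were above the “Vec” libraries, 1 of which was well below the others. The log2FC was 0.45 (95% interval 0.00 to 0.90, standard error 0.211, adjusted p = 0.633), or 0.23 without the lowest library, “Vec” replicate 2, and in the other lines it lay between −0.23 and 0.02. The U251MG groups held 32.6 to 34.4 CPM in “Vec” and 28.6 to 34.9 in “WWOX”, and the U87MG groups 26.6 to 36.3 and 29.0 to 35.1. DBTRG-05MG “Vec” exceeded U87MG by 0.53 (adjusted p = 0.0465) and U251MG by 0.55 (adjusted p = 0.0519). T98G was lowest, at 13.5 to 20.2 CPM in “Vec” and 12.0 to 14.8 in “WWOX”. Among “Vec” cells T98G lay 1.84-fold under U251MG (adjusted p = 0.00243) and 2.69-fold under DBTRG-05MG (adjusted p = 9.01e-06). CFLAR-AS1 and other genes overlap CFLAR, none of them over its outermost annotated start, and overlap at its other starts was not examined.

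**Figure D4:**
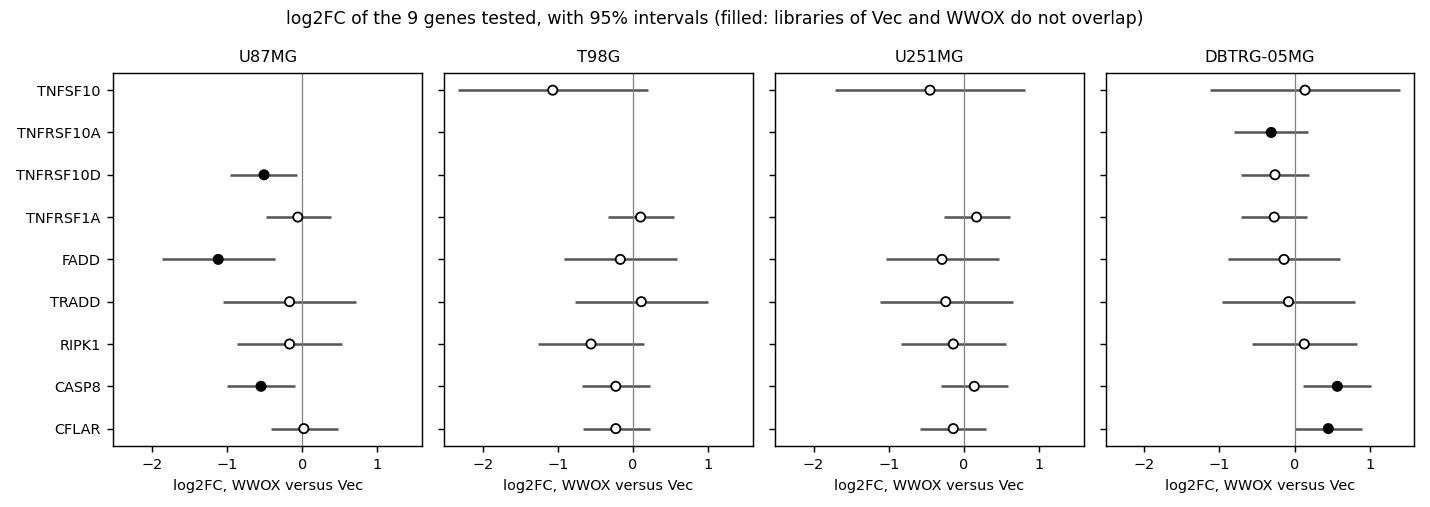
log2FC of “WWOX” versus “Vec” (horizontal) with 95% intervals for the 9 genes tested, in each line; filled circles mark genes whose 3 “Vec” and 3 “WWOX” libraries do not overlap, and values are left out where both group means are under 1 CPM. FADD in U87MG lies farthest below 0 with a filled circle (−1.12), and CASP8 lies on opposite sides in U87MG (−0.55) and DBTRG-05MG (0.57).

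Of the 10 members, 9 passed the filter of 5 CPM in at least 1 library. TNFRSF10A, TNFRSF10D, RIPK1, and TNFSF10 passed it only through the lines where they were high, and counts over the 9 carry no weight as support. Between variants none of the 9 passed the threshold with limma in U87MG, where 3.2% of all genes did, in T98G (1.14%), U251MG (0.316%), or DBTRG-05MG (1.02%). At an unadjusted p under 0.05, 3 members were found in U87MG (beside 1417 of all 12327 genes), 2 in DBTRG-05MG (941 genes), and 0 in T98G (1415 genes) and U251MG (1423 genes). The mean of the 4 lines (1.78% of all genes), the joint test of differences between lines (3.5%), and the differences of U87MG (2.39%) or DBTRG-05MG (0.982%) from the mean of the others and from each other (1.87%) gave 0 calls too, with unadjusted counts of 2, 1, 2, 2, and 1 members, beside 15.4%, 14.6%, 9.92%, 7.1%, and 9.43% of all genes. With DESeq2 on the recovered tags the joint test and the difference of U87MG from DBTRG-05MG each called CASP8, and in no single line was a member called by DESeq2, edgeR, or limma-voom.

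On the scaled log2 values, libraries of the 2 variants did not overlap for 3 members in U87MG, where 17.5% of all genes were so placed, for 3 in DBTRG-05MG (19.7%), and for 0 in T98G (16.2%) and U251MG (10.4%). In U87MG all 3 (FADD, CASP8, TNFRSF10D) were lower in “WWOX”, and in DBTRG-05MG CASP8 and CFLAR were higher and TNFRSF10A was lower. COL1A1, 1 of 2 fibroblast and pericyte markers, fell in U87MG, from a mean of 354 to 94.5 CPM, and its part in the U87MG values was not tested. PDGFRB, the other of these markers, averaged 16.3 CPM in U87MG “Vec” and 17.1 in “WWOX”. The median log2FC of the 9 was −0.17 (U87MG), −0.23 (T98G), −0.14 (U251MG), and −0.08 (DBTRG-05MG), beside medians over all genes of −0.04 in T98G and 0.00 in the other 3.

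Between the “Vec” variants of the 4 lines 8 of 9 members differed (9 with edgeR or DESeq2), beside 66.9% of all genes. Members past the threshold numbered 3 for U87MG against T98G (39.8% of all genes), 6 for U87MG against U251MG (38.6%), and 7 for U87MG against DBTRG-05MG (44.1%). They numbered 4 for T98G against U251MG (32.3%), 5 for T98G against DBTRG-05MG (41.2%), and 4 for U251MG against DBTRG-05MG (31.6%). These comparisons share libraries. U87MG and U251MG grew in the same medium, and for every other pair the line and its medium cannot be told apart.

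The wider pathway was followed in 58 further genes, of which 46 passed the filter. It held 14 receptors and ligands, 21 adaptors, kinases, and ubiquitin enzymes, 8 modulators of the FADD and caspase-8 assembly, and 15 caspases and mitochondrial genes, of which 5, 19, 8, and 14 were tested. Between variants 1 of 46 (2.17%) passed the threshold in T98G, beside 1.14% of all genes. In the mean of the 4 lines 1 passed (2.17%), beside 1.78%, and 0 passed in U87MG, U251MG, and DBTRG-05MG. An unadjusted p under 0.05 was found for 4, 4, 4, and 0 in U87MG, T98G, U251MG, and DBTRG-05MG. Over all 12327 genes these numbers were 1417, 1415, 1423, and 941. The median log2FC of the 46 lay between −0.14 and 0.03 over the lines. Among “Vec” cells 21 of the 46 differed between lines, or 45.7%, beside 66.9% of all genes.

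PEA15, a death effector domain protein that binds FADD and caspase-8, rose in T98G. Its T98G libraries held 3.66, 8.52, and 4.98 CPM in “Vec” and 18.9, 15.1, and 31.5 CPM in “WWOX”. All 3 “WWOX” libraries were above all 3 “Vec” libraries, a log2FC of 1.86 (95% interval 1.01 to 2.72, standard error 0.403, adjusted p = 0.0212, limma), or 3.64-fold. U87MG gave 0.18, U251MG −0.38, and DBTRG-05MG −0.10, and the joint test of the difference between lines gave an adjusted p of 0.0726. The call held in 12 of 13 other settings (adjusted p from 0.00139 to 0.122) and was lost when each line was fitted alone. It was also lost without T98G “Vec” replicate 1 (0.19), “Vec” replicate 3 (0.0751), or “WWOX” replicate 3 (0.184). A gene on the opposite strand is annotated over the start of PEA15, whose window is printed above.

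DAXX, a nuclear adaptor that was first described through its binding to the death domain of FAS, was lower in “WWOX” in the mean of the 4 lines, with a log2FC of −0.42 (standard error 0.104, adjusted p = 0.0385, limma). U251MG held 54.1, 55.4, and 50 CPM in “Vec” and 38.3, 29.8, and 39.8 in “WWOX”, and T98G held 40.6, 44, and 45.4 against 30.7, 36.7, and 31.8, both without overlap. U87MG, with 27.4, 39.3, and 52.4 CPM in “Vec” and 23.6, 25.9, and 32.7 in “WWOX”, overlapped, as did DBTRG-05MG, with 40.7, 47.9, and 41.2 against 42.5, 38.7, and 40.0. U251MG gave −0.58, U87MG −0.55, T98G −0.39, and DBTRG-05MG −0.16, none past the threshold. The call was lost in most alternatives. The adjusted p ran from 0.00913 to 0.09 over 12 other settings, of which 5 passed and 7 did not. Of 24 fits that each left out a library, 7 passed and 17 did not, with adjusted p from 0.00921 to 0.0868.

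**Figure D5:**
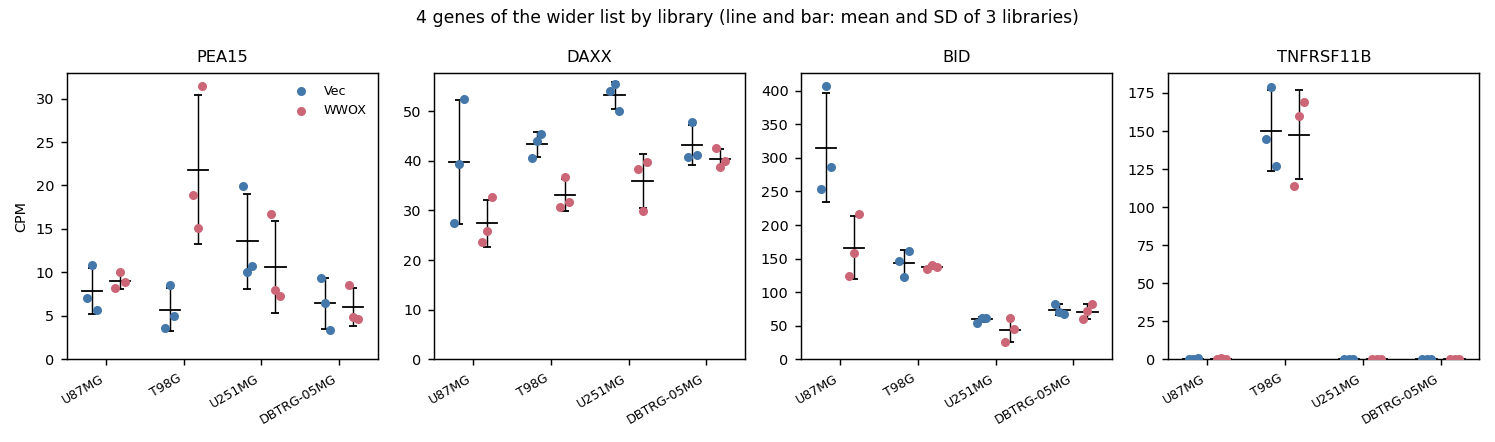
CPM (vertical) of PEA15, DAXX, BID, and TNFRSF11B in the 3 “Vec” (blue) and 3 “WWOX” (red) libraries of each line, with mean and SD in black. PEA15 separates the variants in T98G, BID separates them in U87MG, and TNFRSF11B is at 114 CPM or more in T98G and under 1 CPM in the other lines.

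Other genes of the wider list gave the following. OTULIN, which removes linear ubiquitin from the RIPK1 complex, held 34.9, 40.2, and 53.0 CPM in U87MG “Vec” and 86.5, 65.5, and 63.2 in “WWOX”, without overlap and with a log2FC of 0.69 (adjusted p = 0.0625), and it passed the threshold with DESeq2 (adjusted p = 0.00849). TNFRSF11B, osteoprotegerin, a soluble receptor that can bind TRAIL, was found at 114 to 179 CPM in T98G and at 0.631 CPM at most elsewhere. FAF1, a FAS-binding protein, held 22.5 to 25.8 CPM in DBTRG-05MG and 0.211 CPM at most in the other lines. In neither of these genes did a line show a difference between variants past the threshold.

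Of the 12 genes that did not pass the filter, RIPK3 and FASLG held no tag in any library, and TNFRSF25 and LTA held 3 tags or fewer in each. FAS held 0.458 CPM at most, with 7 tags. Its start lies within STAMBPL1 on the same strand and ACTA2 on the other, and how tags in overlapping genes were assigned is not given in the sources used here, so this low value is not read as absence of the receptor. TNF was at 1.23 CPM at most and TNFRSF10C, the decoy DcR1, at 0.708 CPM at most.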

How the data were processed

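CAGE-Seq tags were aligned by the authors to hg38 with STAR and counted with SAMtools, according to the labels and methods, and deposited as CPM. The annotation used and whether strand was used in counting are not given in the sources used here. Genes on the opposite strand are annotated over FADD, CASP10, RIPK1, and TNFSF10, none of them over the outermost start. Every CPM value was a whole number of tags (100% of values within 0.01 of a whole tag), so tags were recovered, and the 24 single-library tables held the same values as the joint table. The members and lists were chosen with earlier results of these data known. CPM were TMM-scaled and fitted as log2(CPM + 0.5) for 12327 genes with limma 3.58.1 (trend, 8 groups, 16 residual degrees of freedom). Fold changes are on that scale, which understates those of low genes. Values of p are two-sided and adjusted by the Benjamini-Hochberg method over all genes, and intervals are 95%. Replicate numbers did not pair the variants (correlations of deviations from −0.55 to 0.51, with 4 of 12 over 0.1). No replicate libraries agreed within sampling noise. Alternatives used edgeR 4.0.16, DESeq2 1.42.0, other pseudocounts, filters, and scalings, and a GC and length correction (splines with 5 degrees of freedom, 12326 genes with a value). The procedure was tested on simulated data. Named beyond the members were WWOX, list genes past the threshold, the 2 smallest p of each line, PEA15, FAS, TNFRSF10B, the 5 genes most and 3 least like FADD, and 5 neighbours on each side, and a further gene of this rule is not reported here. TNFAIP3, TNFRSF11B, FAF1, RIPK3, FASLG, TNFRSF25, LTA, TNF, TNFRSF10C, DEDD, GFAP, and COL1A1 (with the other markers) were named after their values were seen. Positions follow GENCODE 44, and R 4.3.3 and Python 3.11.15 were used.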

Additional observations from a re-analysis of the deposited data

Results flagged for a closer look

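CASP8 stood out because its “WWOX” libraries lay wholly on opposite sides of its “Vec” libraries in the 2 lines, with a log2FC of 0.57 in DBTRG-05MG and −0.55 in U87MG. The difference between these lines was −1.12, with an adjusted p of 0.0612 in limma, and it was the contrast chosen after the values had been seen. No other member showed this pattern. Libraries of the variants did not overlap for 17.5% of all genes in U87MG and 19.7% in DBTRG-05MG, counting both directions. The share of all genes that lay on opposite sides in the 2 lines was not computed, so the pattern carries no weight by itself.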

How the results depend on the processing

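No member passed the threshold between variants as fitted, and this count moved as follows. In U87MG it was 1 (FADD) with CPM as deposited, 2 (FADD and CASP8) with the GC and length correction, and 1 (FADD) with that correction and the replicate block. The difference of U87MG from the mean of the other lines gave 2 with the correction and 1 with the correction and block. The joint difference between lines gave 1 (CASP8) with DESeq2 and 1 with the correction, and U87MG minus DBTRG-05MG gave 1 (CASP8) with DESeq2, with the correction, and with no filter. The correction without the block called 4.67%, 3.21%, 6.15%, and 2.71% of all genes in these 4 comparisons, beside 3.2%, 2.39%, 3.5%, and 1.87% as fitted. Shares of all genes under the other settings, or with a library left out, are not given here. Those counts therefore do not tell a change in the listed genes from one in the whole fit. In the wider list, U87MG gave 1 (OTULIN) with DESeq2 and with no filter, U251MG gave 1 (TNFAIP3) with DESeq2, and T98G gave 0 when each line was fitted alone. With a library left out, members numbered 0 to 1 in U87MG, in the mean of the lines, in the joint difference, and in U87MG minus DBTRG-05MG, and 7 to 9 between “Vec” levels. The wider list numbered 0 to 1 in U87MG and T98G and 0 to 3 in U251MG, where leaving out “WWOX” replicate 2 called BID, DEDD, and TNFRSF21. Sign turned only with a library left out. FADD ranged from −0.54 to 0.09 in T98G (highest without “Vec” replicate 3). In U251MG FADD ranged from −0.79 to 0.18, TRADD from −0.71 to 0.08, and TNFSF10 from −0.81 to 0.24, each highest without “WWOX” replicate 1, and TNFRSF10B from −0.44 (without “Vec” replicate 2) to 0.78, with −0.09 without “WWOX” replicate 2. The replicate block alone called no member in any comparison of variants, and gave adjusted p of 0.258 for CASP8 in U87MG minus DBTRG-05MG, and 0.09 for DAXX, whose call over the 4 lines it ended, while PEA15 in T98G stayed past the threshold. Replicate numbers share only a number here. “Vec” levels have no blocked fit. Over 33 single values, leaving out 20 under 0.2 in size, 1162 of 1213 alternative values kept their direction and side of the threshold. Depth limits TNFRSF10A, TNFRSF10D, TNFSF10, and CASP10 in the lines where they lie near 3 tags.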

Other observations

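TNFAIP3 (A20), which edits ubiquitin on RIPK1, held 25.8, 34.2, and 23.7 CPM in U87MG “Vec” and 10.8, 15.9, and 11.8 in “WWOX”, a log2FC of −1.15 (adjusted p = 0.157). In U251MG it held 14.2, 10.9, and 9.58 CPM against 10.8, 25.1, and 59.7, a log2FC of 1.11 (adjusted p = 0.26) with overlapping libraries. TNFRSF21 (DR6), a death domain receptor, held 16.6, 16.7, and 10.2 CPM in U251MG “Vec” and 30.1, 13.6, and 45.5 in “WWOX”, which overlap in CPM but not after scaling (log2FC 0.87, adjusted p = 0.239). MCL1, a survival protein of mitochondria, held 46.1, 68.0, and 32.1 CPM in T98G “Vec” and 26.5, 32.6, and 31.1 in “WWOX”, and 50.7, 38.8, and 60.5 against 36.5, 41.8, and 35.0 in DBTRG-05MG, again overlapping in CPM and not after scaling (log2FC −0.63 and −0.44, adjusted p = 0.237 and 0.702). FAIM2, an inhibitor of FAS signalling, held 5.5, 1.80, and 6.45 CPM in DBTRG-05MG “Vec” and 7.96, 10.4, and 7.95 in “WWOX”, without overlap (log2FC 0.94, adjusted p = 0.655).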
